A study of Homo sapiens with 3 samples.

Results

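Deubiquitinases are the enzymes that take ubiquitin off proteins again, and the 52 of their genes read by probe sets of their own were compared between prostate cancer cells grown in an anti-androgen drug and their parental line. A gene was taken when its probe sets were annotated to it alone and its symbol was USP with a number, with an ending in X or L allowed, or was 1 of 10 named symbols outside the USP family. Pseudogenes, Y-linked genes and 2 USP genes were left out by the rule. The 52 genes were read by 156 probe sets, out of 19775 genes measured in this way. The C4-2B line came from LNCaP cells, is long established and is castration-resistant. C4-2B MDVR cells were kept in 20 µM enzalutamide, an antagonist of the androgen receptor. C4-2B AbiR cells were kept in 10 µM abiraterone acetate, which inhibits the androgen-synthesizing enzyme CYP17A1, and C4-2B parental cells had been passaged beside both without either drug. Each resistant line is a single subline and each line was measured on 1 array, so that drug, subline and array cannot be told apart and no difference below has a replicate check or a p-value.

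Ubiquitin is attached to a target by E1, E2 and E3 enzymes, and chains of it can send the target to the proteasome, to the lysosome or into a signalling complex. Deubiquitinases cut these chains, trim them, recycle free ubiquitin at the proteasome and split ubiquitin from its precursors. The USP, UCH and OTU families and CYLD are cysteine proteases, whereas the JAMM enzymes, here BRCC3 and STAMBP, use zinc. In prostate cancer cells the androgen receptor itself carries ubiquitin, and USP7, USP14, USP22 and USP26 are among the members that have been described as acting on the receptor or its signalling.

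The deposited values were log2 values centred for each probe set, so that they hold differences between the arrays and no expression level. A gene near background and a strongly expressed gene could not be told apart, and the labelled cell type could not be checked from the levels of its markers. Of 8 luminal prostate markers, 6 were measured, and 3 of them were at least 2-fold lower in both resistant lines than in parental cells, namely SLC45A3 (log2 difference −2.91 ± 0.72 in MDVR cells and −3.15 ± 0.35 in AbiR cells), KLK3 (−4.07 ± 3.23 and −3.17 ± 2.36) and KLK2 (−1.29 ± 1.19 and −2.12 ± 1.93), the last 2 with probe sets far apart. The others were TMPRSS2 at −0.18 and −0.45, HOXB13 at 0.37 and 0.17 and FOLH1 at 0.21 and −0.13. The 45 spiked bacterial control probe sets, which should not differ between arrays, had an SD on the log2 scale of 0.127 between MDVR and parental cells, 0.102 between AbiR and parental cells and 0.122 between MDVR and AbiR cells. Their largest differences were 0.35, 0.201 and 0.344 in the same order. A ± below is the SD between the probe sets of 1 gene, which share the array and the RNA, so it measures technical spread only. MDVR and AbiR cells share the parental array, and their values are therefore given side by side. An error on that array would move both differences together, so a like difference in both lines is not a second observation.

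USP11 stood furthest from the parental line among the 52 genes, in both resistant lines. USP11 removes ubiquitin from proteins of DNA repair and of TGF-beta signalling. Its 1 probe set had a centred log2 value of 0.74 in MDVR cells, 0.14 in AbiR cells and −0.95 in parental cells. Both resistant lines were thus above the parental line, with MDVR cells the higher of them. The log2 difference was 1.69 for MDVR minus parental, which is 3.23-fold higher, and 1.09 for AbiR minus parental, which is 2.13-fold higher. MDVR cells were above AbiR cells by 0.60, or 1.51-fold. Of all genes measured, 0.551% were higher than USP11 for MDVR minus parental and 0.87% for AbiR minus parental. No second probe set was available to set against it.

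OTUD5 was the member that stood out in MDVR cells with little difference in AbiR cells. OTUD5, also known as DUBA, is an OTU enzyme that acts on TRAF3 and restrains type I interferon production. Its 3 probe sets had centred log2 values of 0.58, 0.62 and 0.75 in MDVR cells, 0.06, 0.09 and 0.04 in AbiR cells, and −0.06, −0.10 and −0.18 in parental cells. On every probe set MDVR cells were well above the other lines, which lay close together. The log2 difference averaged 0.76 ± 0.15 for MDVR minus parental (1.7-fold higher), 0.18 ± 0.05 for AbiR minus parental and, between the resistant lines, 0.59 ± 0.11 (1.5-fold higher in MDVR cells). All 3 probe sets carry a suffix (_a, _x or _s) that marks probes shared between transcripts or a risk of cross-hybridization.

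USP11 and OTUD5 both lie on the short arm of the X chromosome. Their promoters are shown because these genes had the highest differences for MDVR minus parental, as the 250 bases before the start of the RefSeq gene in GRCh38.p14, with the ETS motif CCGGAAGT in capitals. The USP11 window was chrX:47232759-47233008 on the plus strand and the OTUD5 window, taken for the first of 2 listed starts, was chrX:48958382-48958631 on the minus strand.
USP11: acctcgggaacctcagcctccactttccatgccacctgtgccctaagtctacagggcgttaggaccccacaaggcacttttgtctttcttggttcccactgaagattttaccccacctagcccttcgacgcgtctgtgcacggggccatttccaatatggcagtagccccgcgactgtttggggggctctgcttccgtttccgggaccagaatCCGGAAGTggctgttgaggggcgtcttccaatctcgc
OTUD5: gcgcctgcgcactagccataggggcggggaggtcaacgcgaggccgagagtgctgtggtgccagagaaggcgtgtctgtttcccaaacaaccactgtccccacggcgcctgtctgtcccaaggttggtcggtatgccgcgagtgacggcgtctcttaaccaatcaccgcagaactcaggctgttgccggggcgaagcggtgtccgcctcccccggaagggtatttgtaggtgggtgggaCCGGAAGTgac
The motif lay 37 to 30 bases before the start in USP11 and 11 to 4 bases before it in OTUD5. Searched on both strands, it was found in 4 of the 41 member promoters available (9.76%; OTUD5, USP11, USP16 and USP19), against 3.64% of 27305 promoters of the same length. Promoters of USP11 and OTUD5 held 57.6% and 63.6% G and C. The motif was chosen after the values were seen, and a match describes letters only.

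USP14 had the lowest difference of all members in MDVR cells. USP14 sits on the regulatory particle of the proteasome and trims ubiquitin from substrates before they are degraded. Its 3 probe sets had centred log2 values of −0.67, −0.29 and −0.88 in MDVR cells, −0.03, 0.07 and −0.15 in AbiR cells, and 0.19, 0.43 and 0.31 in parental cells. Every probe set was lowest in MDVR cells, intermediate in AbiR cells and highest in parental cells. The log2 difference was −0.92 ± 0.25 for MDVR minus parental (1.9-fold lower), −0.35 ± 0.12 for AbiR minus parental (1.27-fold lower) and, between the resistant lines, −0.58 ± 0.19 for MDVR minus AbiR (1.49-fold lower). Of all genes measured, 2.01% were lower than USP14 for MDVR minus parental.

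USP38 was lower than in parental cells by a like amount in both resistant lines. USP38 takes part in innate immune signalling, where it acts on the kinase TBK1. The 3 probe sets had centred log2 values of −0.61, −0.29 and −0.10 in MDVR cells, −0.32, −0.42 and 0.00 in AbiR cells, and 0.49, 0.60 and 0.24 in parental cells. On every probe set both resistant lines were below parental cells. The log2 difference averaged −0.78 ± 0.39 for MDVR minus parental (1.71-fold lower) and −0.69 ± 0.40 for AbiR minus parental (1.61-fold lower), with MDVR minus AbiR at −0.09 ± 0.21. The spread came from 1 probe set with −0.34 and −0.24, beside −1.10 and −0.89 for the others in MDVR cells and −0.81 and −1.02 for the others in AbiR cells.

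The promoters of USP14 and USP38 are shown beside them because these genes had the lowest differences for MDVR minus parental. The USP14 window was chr18:158307-158556 and the USP38 window chr4:143184667-143184916, both on the plus strand of GRCh38.p14.
USP14: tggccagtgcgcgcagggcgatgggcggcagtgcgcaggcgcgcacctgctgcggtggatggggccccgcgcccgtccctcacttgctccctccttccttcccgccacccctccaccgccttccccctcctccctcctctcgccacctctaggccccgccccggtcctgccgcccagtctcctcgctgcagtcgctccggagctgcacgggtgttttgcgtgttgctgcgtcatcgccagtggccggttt
USP38: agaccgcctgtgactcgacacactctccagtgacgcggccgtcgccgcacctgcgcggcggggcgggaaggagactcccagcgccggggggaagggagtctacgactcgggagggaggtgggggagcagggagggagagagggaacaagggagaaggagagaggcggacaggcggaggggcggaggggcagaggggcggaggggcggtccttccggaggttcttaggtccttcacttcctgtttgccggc
Neither window held the ETS motif on either strand. The letters of a GC box, GGGCGG, occurred 3 times in the USP14 window and 4 times in the USP38 window, both strands counted, which were 72% and 69.6% G and C. On either strand this motif was found in 31 of 41 member promoters (75.6%), against 42.3% of all promoters. The 27305 promoters were not limited to the genes measured here, so the shares come from unlike sets of genes. Of the other motifs searched on both strands, CCAAT was found in 34.1% of member promoters against 33.0% of all and the androgen response half-site AGAACA in 4.88% (USP29 and USP54) against 12.4%.

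**Figure D1:**
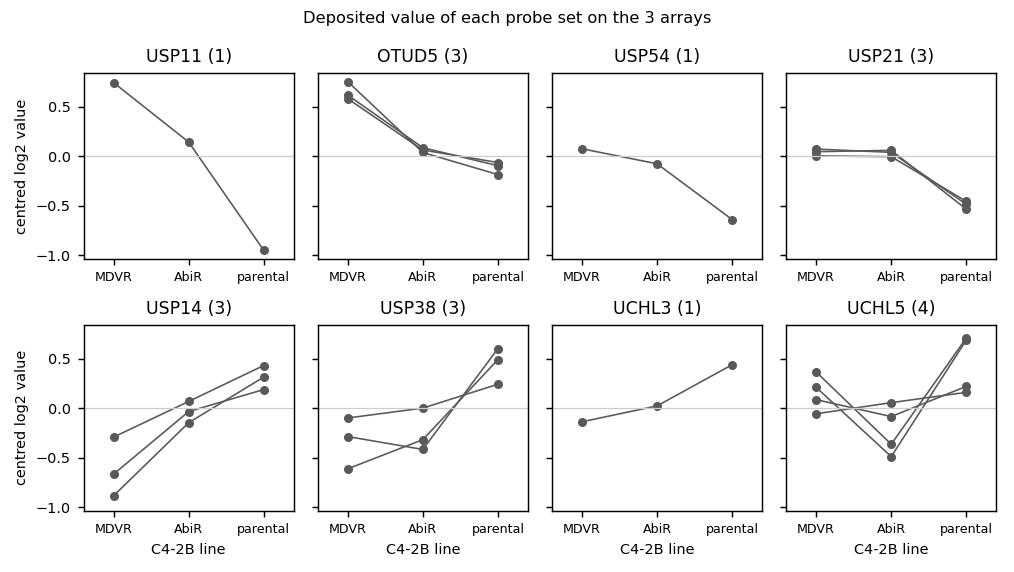
Centred log2 value (y axis) of each probe set, drawn as points joined by a line, on the arrays of C4-2B MDVR, AbiR and parental cells (x axis) for 8 members, with the number of probe sets in brackets. USP11 was highest in MDVR cells, at 0.74, and lowest in parental cells, at −0.95, and all 3 probe sets of USP14 and of USP38 were highest in parental cells.

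Across the 52 genes, few differences reached 2-fold. For MDVR minus parental, 1 member was at least 2-fold higher, against 1.65% of all genes, and 0 members were at least 2-fold lower, against 1.67% of all genes. For AbiR minus parental these counts were 1 higher and 0 lower, beside 1.07% and 0.804% of all genes. The member in question was USP11 in both comparisons. For MDVR minus AbiR, 0 members were at least 2-fold apart in either direction, against 0.875% of all genes higher and 1.13% lower.

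At 1.5-fold, 3 members were higher in MDVR cells than in parental cells (USP11, OTUD5 and USP54; 4.81% of all genes) and 3 were lower (USP14, USP38 and USP53; 5.15% of all genes). These are 5.77% of the members in each direction, close to the share of all genes. In AbiR cells, 1 member was higher than in parental cells (USP11; 3.32% of all genes) and 2 were lower (USP38 and UCHL5; 2.52% of all genes). Between the resistant lines, 2 members were higher in MDVR cells than in AbiR cells (USP11 and OTUD5; 2.77% of all genes) and 0 were lower (3.96% of all genes). UCHL3 in MDVR cells was just short of this fold, at 1.49-fold lower, and USP53 just past it. With the arrays centred on the median of all genes, UCHL3 crossed it, which made 4 members lower in MDVR cells than in parental cells (5.77% of all genes). Under that centring, between the resistant lines 0 members were higher and 1 was lower in MDVR cells (2.36% and 4.62% of all genes). With the median of a gene's probe sets in place of the mean, 1 member was higher and 2 were lower in MDVR cells than in AbiR cells (2.81% and 4.02% of all genes). The counts were the same without suffixed probe sets (2.64% and 5.07% of all genes). Without suffixed probe sets, 0 of the 43 members left were at least 1.5-fold lower in AbiR cells than in parental cells (2.53% of all genes).

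Members lay on both sides of 0 in each comparison. For MDVR minus parental, 24 members were above 0 and 28 below, with a median log2 difference of −0.035 against 0.044 over all genes. For AbiR minus parental, 22 were above 0 and 30 below, with a median of −0.051 against −0.011 over all genes. For MDVR minus AbiR, 28 were above 0 and 24 below, with a median of 0.014 against 0.054 over all genes. The share of members below 0 was 53.8%, 57.7% and 46.2% in the 3 comparisons, above the 42.4%, 52.4% and 39.9% of all genes. Without regard to sign, the median member differed by 0.209 from parental in MDVR cells and by 0.183 in AbiR cells, against 0.171 and 0.131 over all genes. Between MDVR and AbiR cells the median member differed by 0.155, against 0.163 over all genes.

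**Figure D2:**
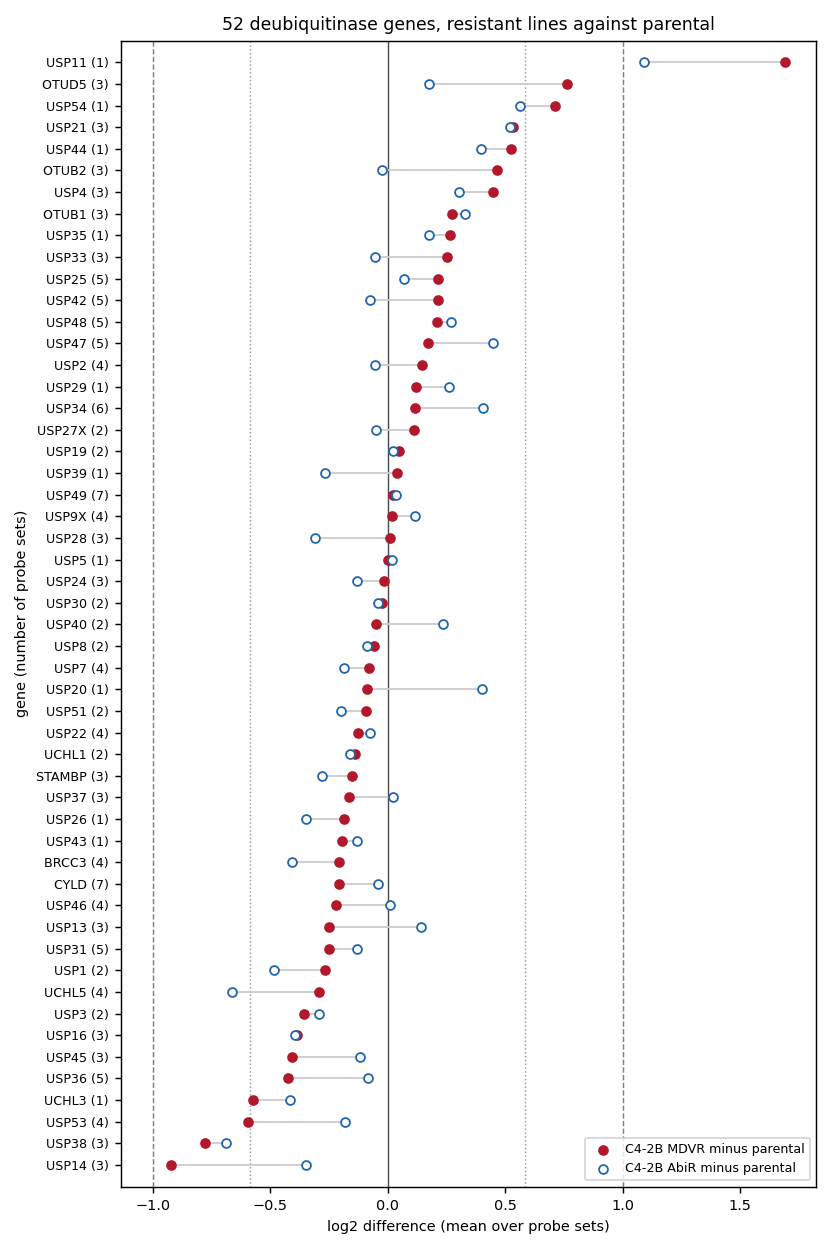
Log2 difference from parental cells (x axis, mean over probe sets) of the 52 deubiquitinase genes (y axis, number of probe sets in brackets), filled for C4-2B MDVR and open for C4-2B AbiR; dotted lines mark 1.5-fold and dashed lines 2-fold. USP11 alone passed 2-fold, and differences ranged from −0.92 to 1.69 in MDVR cells and from −0.69 to 1.09 in AbiR cells.

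Among the enzymes tied to the proteasome, to degradation from the endoplasmic reticulum and to free ubiquitin chains, all 6 were measured. UCHL5, also known as UCH37, binds the proteasome through ADRM1 and cuts chains there. It stood at −0.29 ± 0.15 in MDVR cells and −0.66 ± 0.54 in AbiR cells, as log2 differences from parental, with all 4 probe sets below 0 in both lines. The UCHL5 probe sets formed pairs in AbiR cells, with −1.18 and −1.07 in the pair with suffixes _s and _x and with −0.30 and −0.10 in the other. USP14, described above, was the other proteasome-bound member and was lower in both lines. USP5, which takes unanchored chains apart, stood at 0.00 in MDVR cells and 0.02 in AbiR cells on its 1 probe set, which is parental level within the spread of the spiked controls. USP19, an enzyme of the endoplasmic reticulum membrane, stood at 0.05 ± 0.03 and 0.02 ± 0.01. USP13, which acts in the removal of misfolded proteins, stood at −0.25 ± 0.31 in MDVR cells and 0.14 ± 0.22 in AbiR cells. All 3 USP13 probe sets were lower in MDVR cells than in AbiR cells, by a log2 difference of −0.39 ± 0.14. USP25 had probe sets of both directions in MDVR cells, at 0.22 ± 0.35, and stood at 0.07 ± 0.27 in AbiR cells. The medians of these 6 genes were −0.123 in MDVR cells and 0.0202 in AbiR cells.

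The UCH family was below 0 for all 3 measured members in both lines, namely UCHL1, UCHL3 and UCHL5, while BAP1 had no probe set of its own. Its median log2 difference was −0.292 for MDVR minus parental and −0.416 for AbiR minus parental. UCHL3, which also processes precursors of ubiquitin-like proteins, had centred log2 values of −0.14 in MDVR cells, 0.02 in AbiR cells and 0.44 in parental cells. That made −0.58 for MDVR minus parental and −0.42 for AbiR minus parental on 1 probe set. UCHL1, abundant in neurons, stood at −0.14 ± 0.15 and −0.16 ± 0.01, a size the spiked controls also reach.

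The OTU genes under the rule were above 0 in MDVR cells for all 3 members, with a median of 0.467, beside 0.177 in AbiR cells. This does not hold for the OTU family as a whole. OTU enzymes outside the rule lay on both sides of 0 in MDVR cells, from OTUD6B and YOD1 at −0.92 to OTUD3 at 0.33. OTUB1, which cuts chains linked through lysine 48 and also blocks the E2 enzyme UBC13 without cutting, was above parental in all 3 probe sets of both lines. Its log2 difference was 0.27 ± 0.04 in MDVR cells and 0.33 ± 0.07 in AbiR cells, which is within the largest spiked control difference for MDVR minus parental and beyond it for AbiR minus parental. OTUB2, its close relative, differed between the resistant lines, at 0.47 ± 0.31 for MDVR minus parental and −0.02 ± 0.35 for AbiR minus parental. All 3 OTUB2 probe sets were higher in MDVR cells than in AbiR cells, by 0.49 ± 0.18. Both JAMM enzymes under the rule were below 0 on average in both lines, but each had 1 probe set above parental in MDVR cells. PSMD14, a JAMM enzyme outside the rule, stood at 0.15 in MDVR cells and −0.44 in AbiR cells. BRCC3, the subunit of the BRCA1-A and BRISC complexes that cuts chains linked through lysine 63, stood at −0.21 ± 0.16 in MDVR cells and −0.41 ± 0.25 in AbiR cells. STAMBP, which works on endosomes with STAM, stood at −0.15 ± 0.36 and −0.28 ± 0.10.

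Of the DNA repair and replication enzymes, all 7 were measured, and USP11 was the single member of the group past 1.5-fold in any comparison. Over all genes, 2.52% to 5.15% passed this fold in each direction of a comparison. USP1, with WDR48, removes ubiquitin from FANCD2 and PCNA. It had log2 differences of −0.27 ± 0.09 in MDVR cells and −0.49 ± 0.17 in AbiR cells. Both of its probe sets, with suffix _s, were below 0 in each line. USP45, which acts on the nuclease subunit ERCC1, was below parental in all 3 probe sets of MDVR cells, at −0.41 ± 0.24, and stood at −0.12 ± 0.12 in AbiR cells. USP47 acts on DNA polymerase beta in base excision repair. All 5 of its probe sets, each with suffix _s, were above parental in AbiR cells, at 0.45 ± 0.08. In MDVR cells 1 probe set stood at −0.61 and the others between 0.32 and 0.42. USP48, which trims ubiquitin on histone H2A, was above 0 in all 5 probe sets of both lines, at 0.21 ± 0.13 and 0.27 ± 0.15. USP37, a regulator of cyclin A, stood at −0.16 ± 0.15 and 0.02 ± 0.02. The group therefore held members of both directions, and its medians were −0.164 in MDVR cells and 0.0224 in AbiR cells.

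Among the enzymes of histones and chromatin, 9 of 10 were measured and 0 passed 1.5-fold in any comparison (2.52% to 5.15% of all genes in each direction). USP21, which acts on histone H2A and on nuclear proteins, was nearly the same in both resistant lines. Its probe sets had centred log2 values of 0.05, 0.00 and 0.07 in MDVR cells, 0.06, 0.00 and 0.04 in AbiR cells, and −0.53, −0.45 and −0.48 in parental cells. Both resistant lines were thus above parental on every probe set, by 0.53 ± 0.06 in MDVR cells and 0.52 ± 0.07 in AbiR cells. MDVR minus AbiR was 0.01 ± 0.02. As for OTUD5, all 3 probe sets carry a suffix (_x or _s). USP44, which acts on histone H2B and in the mitotic checkpoint, stood at 0.52 and 0.40 on 1 probe set. USP16, the H2A enzyme that acts on mitotic chromosomes, went the other way in both lines, at −0.38 ± 0.08 and −0.40 ± 0.07. All 3 of its probe sets, with suffix _x or _s, were below 0. USP3, another H2A enzyme, stood at −0.36 ± 0.39 and −0.29 ± 0.09. USP36, a nucleolar enzyme, stood at −0.43 ± 0.33 and −0.09 ± 0.11. USP22, the catalytic subunit of the SAGA module that removes ubiquitin from H2B, stood at −0.13 ± 0.06 and −0.07 ± 0.08, within the SD of the spiked controls in AbiR cells and about as large as it in MDVR cells. USP27X, USP49 and USP51 lay between −0.20 and 0.11 in both lines.

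Of the enzymes that act on p53 or MDM2, 6 of 7 were measured and 0 passed 1.5-fold (2.52% to 5.15% of all genes in each direction of a comparison). USP7, which keeps MDM2 stable and has also been tied to the androgen receptor, stood at −0.08 ± 0.11 for MDVR minus parental and −0.18 ± 0.19 for AbiR minus parental. USP4, a near relative of USP11, stood at 0.45 ± 0.33 in MDVR cells with all 3 probe sets above 0. In AbiR cells USP4 stood at 0.30 ± 0.38, with 0.55 and 0.50 in 2 probe sets and −0.14 in the other. USP28, which stabilizes MYC and binds 53BP1, was at parental level in MDVR cells, at 0.01 ± 0.18, and stood at −0.31 ± 0.10 in AbiR cells. USP42, an enzyme of p53, stood at 0.21 ± 0.18 and −0.07 ± 0.29, with all 5 probe sets higher in MDVR cells than in AbiR cells by 0.29 ± 0.14. USP2 stood at 0.15 ± 0.19 and −0.05 ± 0.36. USP29, given below among genes known from testis, was counted in this group as well.

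Of the enzymes of endosomes and receptor trafficking, 6 of 8 were measured and 0 passed 1.5-fold (2.52% to 5.15% of all genes in each direction of a comparison). USP20 and USP33 are close relatives that recycle the beta-2 adrenergic receptor, and they differed between the resistant lines in opposite directions. USP20 had a centred log2 value of −0.16 in MDVR cells, 0.33 in AbiR cells and −0.08 in parental cells, which makes −0.49 for MDVR minus AbiR on 1 probe set. USP33 stood at 0.31 ± 0.08 for MDVR minus AbiR, with all 3 probe sets in that direction. USP9X, a broadly acting enzyme, stood at 0.02 ± 0.26 and 0.11 ± 0.19 against parental. USP8, which acts on receptors at endosomes, stood at −0.06 ± 0.00 and −0.09 ± 0.08, and USP46 at −0.22 ± 0.41 and 0.01 ± 0.30.

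Of the enzymes of NF-kB, TGF-beta and innate immune signalling, 5 of 6 were measured, among them OTUD5 and USP38. CYLD, the tumour suppressor that cuts lysine 63 and linear chains and restrains NF-kB, had 7 probe sets, of which 3 were higher and 4 lower in MDVR cells than in parental cells. Its log2 difference was −0.21 ± 0.37 in MDVR cells and −0.04 ± 0.20 in AbiR cells. USP31, which acts in the same pathway, stood at −0.25 ± 0.65 in MDVR cells, with single probe sets between −0.87 and 0.74, and at −0.13 ± 0.29 in AbiR cells. USP15, a further relative of USP4 and USP11, was read only by probe sets annotated jointly with a microRNA and was not counted among the 52.

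USP53 and USP54 have long been annotated as lacking peptidase activity, and USP39 works in splicing. USP54 was above parental by 0.71 in MDVR cells and 0.56 in AbiR cells on 1 probe set, with centred log2 values of 0.08, −0.08 and, in parental cells, −0.64. USP53 stood at −0.60 ± 0.52 in MDVR cells, with −0.98, −0.83 and −0.74 in 3 probe sets and 0.17 in the other, and at −0.18 ± 0.10 in AbiR cells. USP39 stood at 0.04 in MDVR cells and −0.27 in AbiR cells. USP26 and USP29 are known from testis, and USP26 has been described as an enzyme of the androgen receptor. They stood at −0.19 and 0.12 in MDVR cells and at −0.35 and 0.26 in AbiR cells on 1 probe set each. USP30, of the outer mitochondrial membrane, had probe sets at 0.39 and −0.44 in MDVR cells, and its mean of −0.02 ± 0.58 is no measure of either. In AbiR cells USP30 stood at −0.04 ± 0.04.

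Of the members placed in none of these groups, OTUB2, given above, was furthest from parental in MDVR cells, at 0.47 ± 0.31. In AbiR cells USP34 was furthest. USP34, which acts in Wnt signalling, had 1 of 6 probe sets at 1.41 in AbiR cells while the others lay between −0.03 and 0.39, for a mean of 0.41 ± 0.52. USP40 was lower in MDVR cells than in AbiR cells by a log2 difference of −0.28 ± 0.08. USP24, USP35 and USP43 lay between −0.19 and 0.27 in both lines.

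**Figure D3:**
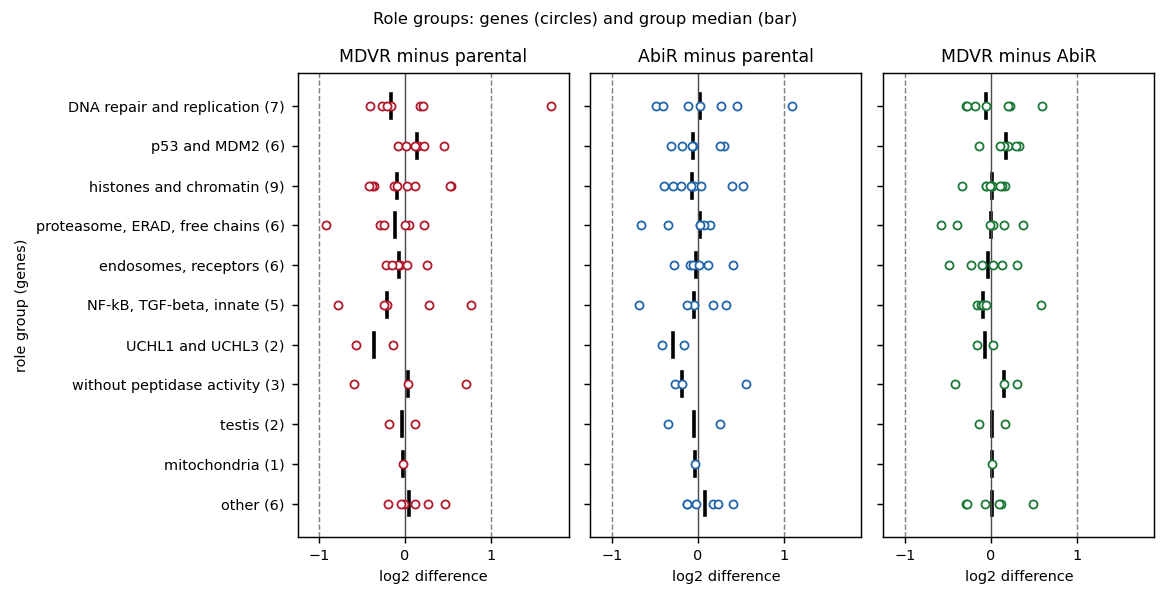
Log2 difference (x axis) of single deubiquitinase genes (circles) and their median (bar) by role group (y axis, number of genes in brackets), with MDVR minus parental on the left, AbiR minus parental in the middle and MDVR minus AbiR on the right. Most groups spread across 0, with USP11 at 1.69 and 1.09 the single gene past the dashed 2-fold lines. USP29 was drawn under p53 and MDM2 and again under testis.

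Probe sets of 1 gene often disagreed at these sizes. All probe sets lay in 1 direction for 21 of the 41 members with 2 or more of them between MDVR and parental cells (51.2%), for 23 between AbiR and parental cells (56.1%) and for 16 between MDVR and AbiR cells (39.0%). The shares over 10523 genes with 2 or more probe sets were 49.0%, 48.0% and 44.6%. The median SD between probe sets was 0.185, 0.146 and 0.188 over the members and 0.201, 0.152 and 0.206 over all genes. Of the members past 1.5-fold with 2 or more probe sets, OTUD5, USP14, USP38 and UCHL5 had all probe sets in 1 direction and USP53 did not.

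**Figure D4:**
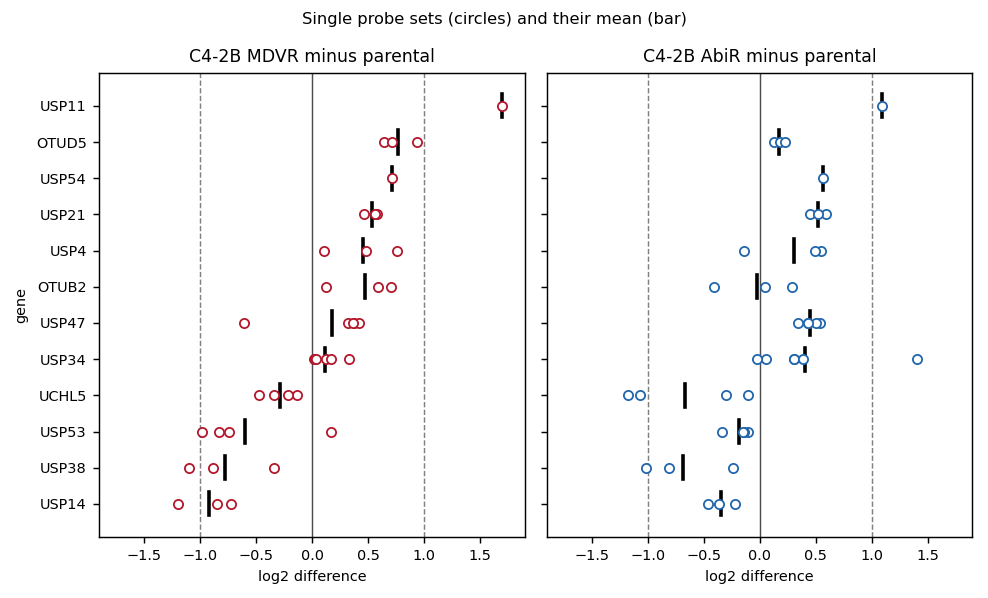
Log2 difference from parental cells (x axis) of each probe set (circles) and their mean (bar) for 12 deubiquitinase genes (y axis), in C4-2B MDVR (left) and C4-2B AbiR (right); dashed lines mark 2-fold. Probe sets lay close together for OTUD5 and USP21, and far apart for UCHL5 in AbiR cells, where they ran between −1.18 and −0.10.

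Genes beside the 4 leading members were set against them, a choice made after the values were seen. The 10 measured neighbours of USP11, 5 on each side in RefSeq order, had a median log2 difference of 0.00 in MDVR cells (range −1.03 to 0.55) and 0.03 in AbiR cells (range −0.28 to 0.34), so none reached USP11. One of them, UBA1, encodes the main ubiquitin-activating enzyme and stood at 0.08 ± 0.38 and −0.24 ± 0.72. The neighbours of OTUD5 had medians of 0.16 and 0.08, and PCSK1N, at 1.28 and 0.81, was higher than OTUD5 in both lines. In AbiR cells PRAF2, GRIPAP1 and TFE3 were also above OTUD5, at 0.35, 0.22 and 0.20. USP14 was the first measured gene of chromosome 18, and its 5 neighbours had medians of −0.35 in MDVR cells and 0.10 in AbiR cells. Their values ranged from −0.90 to 0.01 in MDVR cells and from −0.08 to 2.44 in AbiR cells. TYMSOS, at −0.90 in MDVR cells, lay close to USP14 there, and COLEC12 held the value of 2.44 in AbiR cells. Beside USP38, INPP4B stood at −1.33 in both lines, SMARCA5 at −0.71 and −0.85 and ZNF330 at −0.52 and −0.72, while the median of all 10 neighbours was −0.05 and −0.10. The part of position in these values was not tested.

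**Figure D5:**
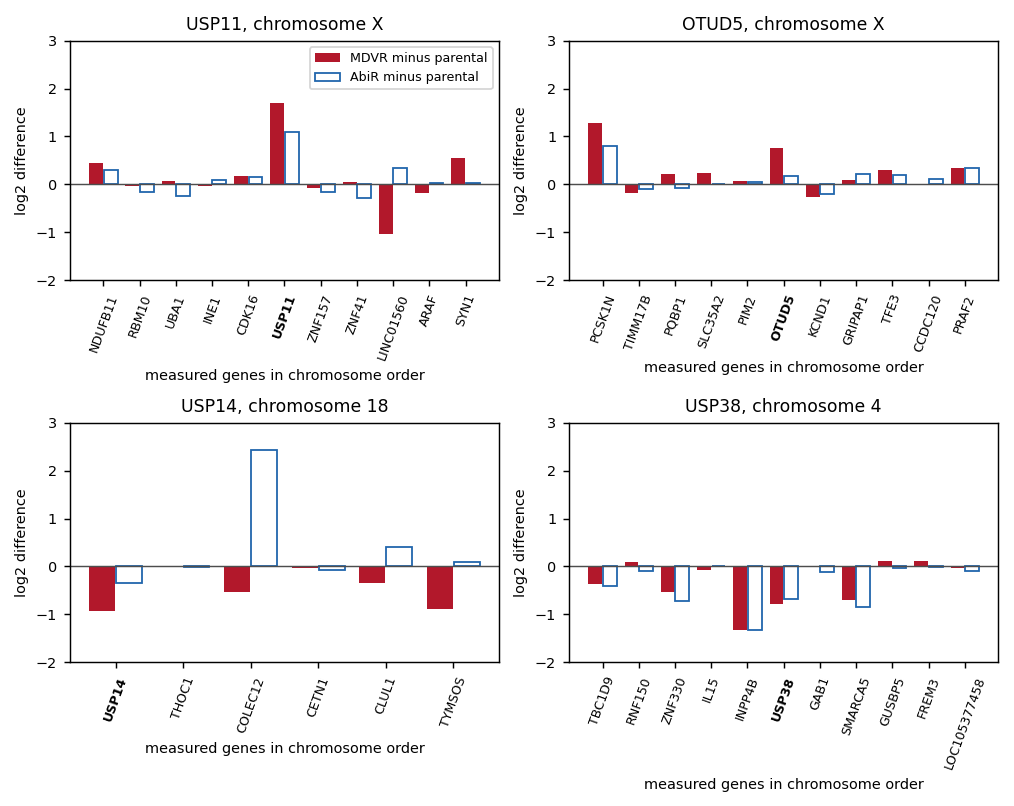
Log2 difference from parental cells (y axis) for C4-2B MDVR (filled bars) and C4-2B AbiR (open bars) of USP11, OTUD5, USP14 and USP38 and of the nearest measured genes in chromosome order (x axis). USP11 stood above its neighbours at 1.69 and 1.09, and INPP4B beside USP38 stood at −1.33 in both lines.

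On the X chromosome lay 7 members, of which 2 were at least 1.5-fold higher in MDVR cells and 1 in AbiR cells. Over all 696 measured X-linked genes, 8.48% were at least 1.5-fold higher in MDVR cells and 5.03% in AbiR cells. The medians of the 7 members were 0.02 in MDVR cells and −0.05 in AbiR cells, so the other X-linked members did not share the values of USP11 and OTUD5.

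Partners of the deubiquitinases were mostly near parental level. Of 22 cofactors and complex subunits, 21 were measured, and 0 were 2-fold higher or lower in any comparison (0.804% to 1.67% of all genes in each direction). The median log2 difference was 0.05 in both resistant lines. ABRAXAS1, the scaffold that holds BRCC3 in the BRCA1-A complex, was the 1 partner past 1.5-fold against parental, at 0.69 ± 0.19 in MDVR cells. Of all genes, 4.81% were at least 1.5-fold higher there. In AbiR cells ABRAXAS1 stood at 0.52 ± 0.28. UIMC1, which brings that complex to ubiquitin chains, stood at −0.42 and −0.44, so subunits of 1 complex lay on both sides of 0. ENY2, a partner of USP22 in the SAGA module, stood at −0.37 ± 0.46 and −0.48 ± 0.27. PSMD14, the JAMM subunit of the proteasome lid, stood at 0.15 and −0.44. BABAM2, a further subunit of the BRCC3 complexes, stood at 0.29 ± 0.06 and 0.17 ± 0.06, and ATXN7, which anchors the USP22 module, at −0.08 ± 0.23 and 0.25 ± 0.25. Between the resistant lines the highest partners were PSMD14 at 0.58 and SHMT2, which binds the BRISC complex, at 0.30 ± 0.07, and the lowest were BABAM1, another subunit of the BRCC3 complexes, at −0.58 and STAM2, the endosomal partner of STAMBP, at −0.37 ± 0.72.

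Of 21 further deubiquitinases and related enzymes outside the rule, with COPS5 and USPL1 among the related enzymes, all were measured. YOD1, an OTU enzyme of degradation from the endoplasmic reticulum, was lower in both lines, at −0.92 ± 0.09 in MDVR cells and −0.84 ± 0.05 in AbiR cells. OTUD6B stood at −0.92 and −0.19 on 1 probe set. These were the 2 further enzymes at least 1.5-fold lower in MDVR cells (5.15% of all genes), and YOD1 was the 1 in AbiR cells (2.52% of all genes). MINDY2, which cuts long lysine 48 chains, separated the resistant lines, at −0.47 ± 0.31 in MDVR cells and 0.43 ± 0.02 in AbiR cells. The highest in MDVR cells were OTUD3 at 0.33 and OTUD1 at 0.27 ± 0.15, and in AbiR cells MINDY2, given above, and MINDY1 at 0.40 ± 0.18. OTUD4 stood at −0.31 ± 0.24 in AbiR cells. For MDVR minus AbiR, ZUP1 at 0.24 and OTUD3 at 0.22 were highest, and MINDY2 at −0.90 and OTUD6B at −0.73 were lowest. Medians of the 21 genes were −0.01 and 0.08. Of 6 ubiquitin and E1 genes, 3 were measured, and UBB, a polyubiquitin gene, stood at 0.19 in MDVR cells and −0.05 in AbiR cells, while UBA6, the second ubiquitin E1, stood at −0.03 and −0.18.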

How the data were processed

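RNA of C4-2B MDVR, C4-2B AbiR and C4-2B parental cells was measured on 3 Affymetrix arrays, 1 per line, grouped by the sample labels. The authors deposited log2 values for 54675 probe sets, made by RMA per the submitters' processing notes, whose version is not given in the sources used here. This method subtracts background, normalizes the arrays and summarizes probes. The deposited log2 values had also been centred per probe set: 53.4% of probe sets held a pair of values mirrored around 0 within 2e-06, and 1.66% held an exact 0. What they were centred on is not given in the sources used here. Centring removes the expression level and leaves differences between arrays unchanged.

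Names came from the array's annotation, in which 41097 probe sets had 1 gene symbol and 1801 several. Of those with 1 symbol, 99.9% matched RefSeq (GRCh38.p14) by gene ID. Each of the 19775 genes was given the mean of its probe sets annotated to it alone, with no filter on low values. Of 83 protein-coding RefSeq genes whose symbols fit the rule, 31 were not analysed here, 25 of them USP17-like. Promoters were taken from RefSeq and matched by symbol for 41 members.

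Log2 differences were taken between arrays, and genes past 2-fold and 1.5-fold were counted. With 1 array per line, no test could be run, and the number of arrays limits the precision. Named were the 8 highest and 8 lowest members in each comparison among those whose probe sets all differed in 1 direction. Every member outside the USP family was also named, as were USP7, USP9X, USP14, USP22 and USP26. The 2 highest and 2 lowest partner genes were named for each comparison. The same was done for the further deubiquitinases and related enzymes. Other members were named after their values were seen. The members and lists were chosen with earlier results of these data known. The computation was tested on simulated data. Alternatives changed the probe set summary, array centring, suffixes used, fold and minimum of probe sets. Python 3.11.15, pandas 2.3.3, numpy 2.4.6 and matplotlib 3.10.9 were used.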

Additional observations from a re-analysis of the deposited data

Results flagged for a closer look

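1 signal lay in probe sets outside the counted genes. USP15, a relative of USP4 and USP11, is read by 4 probe sets annotated jointly with MIR6125. 1 of them had a log2 difference of −1.23 for MDVR minus parental and −0.26 for AbiR minus parental. The other 3 did not share that value in MDVR cells, at −0.33, 0.69 and −0.16.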

How the results depend on the processing

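No paired analysis was possible because each line has 1 array, and leaving out an array was not possible for the same reason. The 10 named values past 1.5-fold came from probe sets that all lay in 1 direction. For those of USP11 and USP54, with 1 probe set each, this holds automatically and is no check. No change of the probe set summary could therefore give any of the 10 values the other sign. The array centrings moved values too little to do so. USP53, past 1.5-fold with probe sets that disagree, was not among these 10. With the probe set of largest SD over the arrays, 10 of 105 named values took the other sign, among them USP47 for MDVR minus parental (0.17, then −0.61). The median of the 52 genes for MDVR minus AbiR (0.014) was −0.031 after centring on all genes and −0.044 without suffixed probe sets. That for AbiR minus parental (−0.051) was −0.131 after centring on hybridization controls. That for MDVR minus parental (−0.035) was −0.087 without suffixed probe sets. Centring moves every gene by the same amount. Under these centrings the medians of all genes became 0.009 for MDVR minus AbiR and −0.091 for AbiR minus parental. At 1.5-fold in place of 2-fold, the higher and lower counts were 3 and 3 for MDVR minus parental (1 and 0 at 2-fold), 1 and 2 for AbiR minus parental (1 and 0) and 2 and 0 for MDVR minus AbiR (0 and 0). With the probe set of largest SD for each gene, 2 members were at least 2-fold lower for MDVR minus parental (3.89% of all genes), 2 were higher and 1 lower for AbiR minus parental (2.11% and 1.43% of all genes), and 1 was higher and 1 lower for MDVR minus AbiR (1.60% and 3.16% of all genes). Without suffixed probe sets, 1 was lower for MDVR minus parental (USP14, at −1.20; 2.10% of all genes). With genes of 2 or more probe sets only, 0 members were at least 2-fold higher in either resistant line than in parental cells, since USP11 has 1. Of all such genes, 1.28% were in MDVR cells and 0.950% in AbiR cells. Other array centrings, of which that on hybridization controls was chosen after seeing the data, moved the median of all genes by less than 0.1. Weakly expressed genes could not be recognized, and the differences they can show are limited by background.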

Other observations

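Transcripts from the opposite strand of some members, or starting beside them, were read by probe sets of their own. USP3-AS1, antisense to USP3, had a log2 difference of −0.87 for MDVR minus parental and −0.07 for AbiR minus parental, beside −0.36 and −0.29 for USP3 itself. USP46-DT, which starts beside USP46 in the opposite direction, stood at −0.60 and −0.66, while USP46 stood at −0.22 and 0.01. Smaller differences were found for USP2-AS1, at 0.09 and −0.21, for USP27X-DT, at 0.09 and 0.06, and for USP30-AS1, at −0.18 and −0.12.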
